A study of Mus musculus with 9 samples.

Results

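Cytokine receptors of the JAK-STAT type, the kinase and the transcription factor that carry their signal, and the proteins that stop it were followed in single spleen cells of mice with the R594C change in IRE1, a sensor of endoplasmic reticulum stress that splices Xbp1 mRNA. The set holds 10 of the 55385 genes in the count files, taken by symbol: the receptor chains Il6ra, Il6st, Il4ra and Il21r, the kinase Jak1, the factor Stat3, the brakes Socs3, Socs1 and Cish, and Pim1. All 10 symbols were found. The set was chosen by a measured value: Socs3 was lower in R594C/R594C than in WT follicular B cells in an earlier look at these counts. The values of that contrast in that cell class are therefore given as a description, with no test.

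Total splenocytes, sorted with the dead-cell dye DAPI, were read by CITE-seq, in which transcripts, antibody tags and hashtags are counted from the same cell. The groups were R594C/R594C (2 hashtag replicates), R594C/+ (4 replicates) and WT (4 replicates), with 2938 to 7239 cells and 13166783 to 28310282 RNA UMIs (molecule tags) per replicate. Whether each hashtag replicate was its own animal is not stated in the labels, and the p-values below speak only for the spread among these samples, which may be technical. Each genotype was 1 capture, so genotype, capture and staining cannot be told apart. Pairs of captures shared 68, 79 and 89 barcodes. By Xist, R594C/R594C held 1 male and 1 female replicate, R594C/+ held 4 female replicates, and WT held 3 male replicates and 1 female replicate.

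In this pathway a cytokine brings receptor chains together, JAK kinases bound to them phosphorylate STAT factors, and the STATs enter the nucleus and switch on genes. Socs3, Socs1 and Cish are themselves induced by STATs and feed back: Socs3 acts on gp130, the shared chain encoded by Il6st, Socs1 acts on JAK kinases in interferon and interleukin 4 signalling, and Cish acts on STAT5 pathways. In the spleen, interleukin 6 and interleukin 21 act on T and B cells through STAT3, and interleukin 4 acts on B cells through STAT6.

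STAT dimers bind the motif TTCNNNGAA, which reads the same on both strands, and the promoters of the members with this motif are shown because both belong to the brakes. RefSeq promoter windows (GRCm38.p6, 250 bases before and 50 after the start) were found for all 10 genes, as 11 entries. Windows of Socs3 and Cish held the motif, and those of the other 8 genes did not. Capitals mark the motif in the strand of the gene. The Socs3 stretch is chr11:117969367-117969616, minus strand, the 250 bases before that start, with the motif beginning at position -154. The Cish stretch is chr9:107296654-107296683, plus strand, around its start, with motifs that begin at bases 1 and 12 of the transcript.
Socs3: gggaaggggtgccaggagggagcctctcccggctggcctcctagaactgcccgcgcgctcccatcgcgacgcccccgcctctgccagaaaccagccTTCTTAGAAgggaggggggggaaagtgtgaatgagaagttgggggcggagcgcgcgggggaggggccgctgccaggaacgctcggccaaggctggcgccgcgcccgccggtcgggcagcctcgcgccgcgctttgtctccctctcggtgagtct
Cish: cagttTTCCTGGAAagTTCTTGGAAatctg

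Across all 32851 promoter windows of this length, 8.3% held the motif and 0.46% held it 2 or more times. A match in letters is a description and does not show binding. The RefSeq span of Socs3 (chromosome 11, 117966079 to 117970336) reaches past the start used for its window. The printed Socs3 stretch therefore lies inside that span, and bases upstream of the span were not searched. Il4ra and Il21r lie next to each other on chromosome 7, at 125552271 to 125579474 and 125603252 to 125634397.

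Levels are CPM (the UMIs of a gene scaled to a fixed library total) from RNA UMIs summed over the cells of a class in a replicate, and comparisons of levels are made within a gene. The 20 classes are RNA clusters named from marker genes, so differences between them are a description. They ranged from 17117 follicular-like B cells to 138 pDC-like cells. One B cell cluster, led by Egr2, Egr3, Myc and Il4i1, kept its number and is called cluster 15 B. Where no spread is given by genotype, mean and SD run over all replicates with at least 10 cells.

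The interleukin 6 receptor chain Il6ra was highest in monocyte-like cells, at 228 ± 42.2 CPM (SD, n = 10), and lowest in NK-like cells, at 1.94 ± 2.19 CPM (n = 10). An Il6ra UMI was found in 71.0% of the 527 monocyte-like cells (median depth 5742 UMIs) and in 0.78% of the 1022 NK-like cells (median depth 3254.5 UMIs). T cell classes ranged widely, with 141 ± 21.3 CPM in Il21 CD4 T-like, 114 ± 9.82 CPM in CD4 T-like, 87.9 ± 8.74 CPM in CD8 T-like and 9.48 ± 7.94 CPM in Gzmk CD8 T-like cells. The main B cell classes were low, with 27.9 ± 6.77 CPM in B1-like cells, 14.6 ± 4.00 CPM in follicular-like cells and 8.16 ± 2.79 CPM in marginal zone-like cells.

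Il6st, the signalling chain gp130, followed a different order. It was highest in regulatory T-like cells at 183 ± 29.3 CPM and CD4 T-like cells at 155 ± 20.1 CPM, and lowest in neutrophil-like cells at 3.45 ± 7.49 CPM. That lowest mean rests on 2 UMIs in R594C/R594C replicate 2 and 1 UMI in R594C/+ replicate 2. Neutrophil-like cells also had the lowest median depth of any class, 1729.5 UMIs. Among B cells Il6st was 69.9 ± 25.6 CPM in B1-like cells, 47.5 ± 8.03 CPM in marginal zone-like cells and 32.9 ± 6.24 CPM in follicular-like cells. Monocyte-like cells, first for Il6ra, held 53.4 ± 19.1 CPM of Il6st.

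Il4ra, a chain of the interleukin 4 and interleukin 13 receptors, was 108 ± 6.41 CPM in follicular-like B cells, above 66.7 ± 10.1 CPM in marginal zone-like and 46.1 ± 8.33 CPM in B1-like cells. Its highest mean was in Gzmm CD8 T-like cells (177 ± 12.4 CPM). Il21 CD4 T-like cells, a cluster with Il21 among its marker genes, averaged 34.0 ± 8.08 CPM of Il4ra, and CD4 T-like cells 140 ± 22.1 CPM. Il21r, the interleukin 21 receptor, was highest in cluster 15 B (293 ± 49.0 CPM), was 155 ± 11.6 CPM in follicular-like and 57.3 ± 17.2 CPM in B1-like cells, and was lowest in plasma cell-like cells (5.10 ± 1.17 CPM).

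Jak1, the kinase shared by these receptors, was highest in NK-like cells (938 ± 95.4 CPM), 344 ± 22.5 CPM in follicular-like B cells and lowest in plasma cell-like cells (33.6 ± 4.97 CPM). Stat3 spanned a narrower range: 320 ± 68.3 CPM in neutrophil-like cells, 282 ± 34.5 CPM in NK-like cells, 132 ± 11.1 CPM in follicular-like B cells and 32.6 ± 4.39 CPM in plasma cell-like cells. Plasma cell-like cells had the highest median depth of any class, 17749 UMIs, led by immunoglobulin transcripts, so their low CPM is a share of a larger total. A Jak1 UMI was found in 29.7% to 47.1% of plasma cell-like and 54.2% to 64.5% of follicular-like cells per replicate.

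Among the brakes, Socs3 was highest in Il21 CD4 T-like cells (269 ± 33.7 CPM), with 156 ± 23.3 CPM in NK-like and 147 ± 36.1 CPM in monocyte-like cells. The main B cell classes were close to each other, at 41.1 ± 12.7 CPM in B1-like, 38.0 ± 7.13 CPM in follicular-like and 36.2 ± 6.26 CPM in marginal zone-like cells. Socs1 had its highest means in T and NK cells, with 126 ± 21.7 CPM in Gzmm CD8 T-like cells, 71.0 ± 17.7 CPM in NK-like cells and 13.3 ± 3.45 CPM in follicular-like B cells. Cish was highest in regulatory T-like cells (156 ± 38.7 CPM) and Il21 CD4 T-like cells (107 ± 18.6 CPM). No Cish UMI was counted in 300 neutrophil-like cells, which allows a share of cells with a UMI of up to 1.0%, or in 110 pDC-like cells, which allows up to 2.73%.

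Pim1, a survival kinase and a STAT target, was highest in neutrophil-like cells at 4650 ± 452 CPM, ahead of cDC2-like (1940 ± 217 CPM) and NK-like cells (1910 ± 208 CPM). Marginal zone-like B cells held 753 ± 97.8 CPM, against 419 ± 51.6 CPM in follicular-like B cells. The highest and second classes did not overlap for Pim1, while for each of the other 9 genes the ranges of the 2 highest classes overlapped. Neighbours further down overlapped too, with 6 exceptions: Jak1 between Gzmm CD8 and CD8 T-like cells, between regulatory T-like and follicular-like B cells and between cDC1-like and plasma cell-like cells, Pim1 between NK-like and Gzmm CD8 T-like cells and between follicular-like B and CD8 T-like cells, and Socs1 between NK-like and germinal centre-like B cells.

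**Figure D1:**
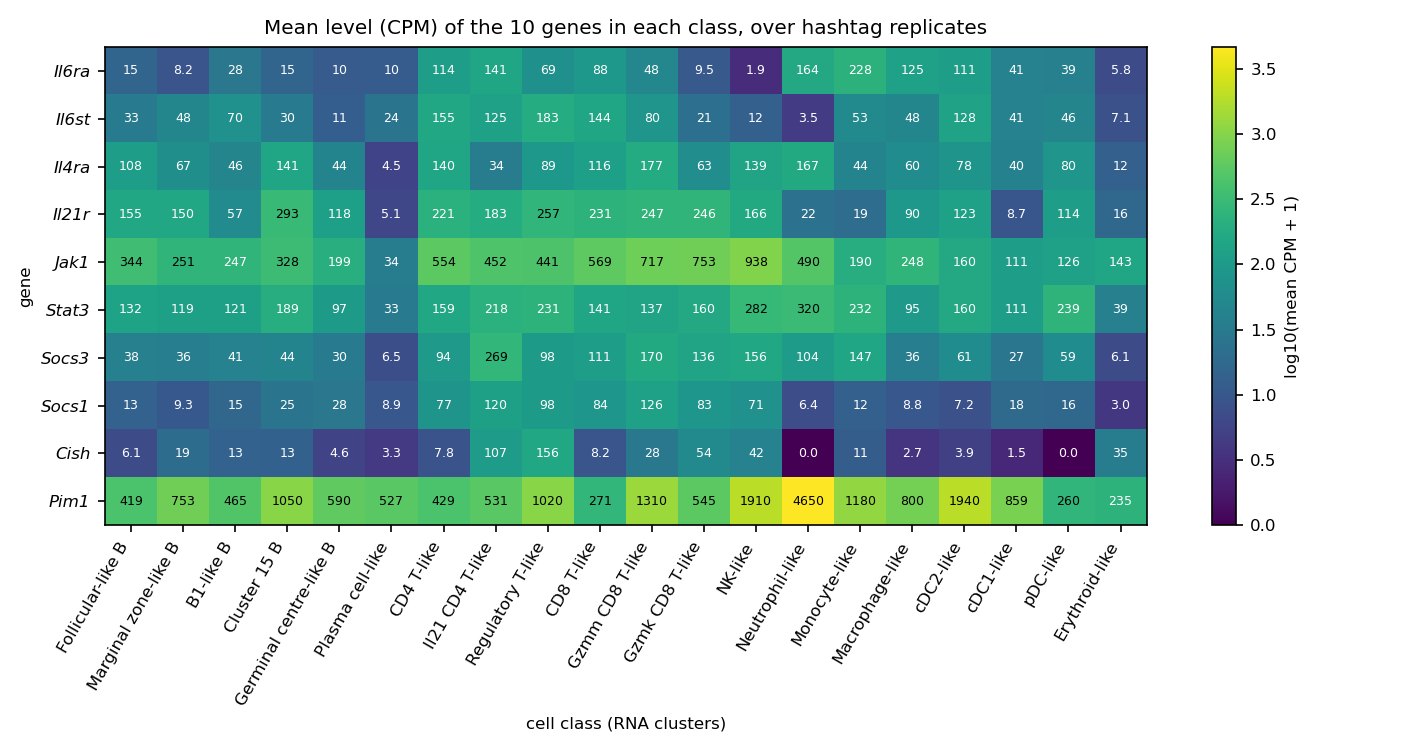
Mean level of each gene (rows, CPM printed in the cells, colour as log10 of mean CPM + 1) in each RNA cluster class (columns), over those hashtag replicates that held 10 cells or more, which are all 10 except in erythroid-like cells (8, with 2 from WT) and pDC-like cells (6, with 0 from WT). Pim1 reaches 4650 CPM in neutrophil-like cells and Il6ra 228 CPM in monocyte-like cells. Plasma cell-like cells, the class of highest median depth (17749 UMIs), hold the lowest mean CPM of Il4ra, Il21r, Jak1 and Stat3.

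Levels between cell types were tested on classes gated on antibody tags alone, since RNA did not define those gates. Each test ran over 10 replicates with the replicate as block (edgeR's quasi-likelihood test, Benjamini-Hochberg over all genes). The follicular gate held 13523 cells, 90.5% of them follicular-like, and the marginal zone gate held 2123 cells, 72.6% marginal zone-like and 20.6% follicular-like.

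As a share of RNA UMIs, marginal zone B cells had more of the brake Cish and of Pim1 than follicular B cells, and less of Il6ra, Socs1 and Il4ra. In that comparison 8 of the 10 genes passed an adjusted p of 0.05, where 38.9% of all genes tested did. Cish averaged 18.4 ± 5.13 CPM in the marginal zone gate and 6.38 ± 1.83 CPM in the follicular gate, a log2 fold of 1.55 (SE 0.16, adjusted p = 9.06e-13, higher in 10 of 10 replicates). Pim1 averaged 783 ± 98.3 CPM in the marginal zone gate and 438 ± 53.2 CPM in the follicular gate (log2 fold 0.89, SE 0.03, adjusted p = 3.3e-33, higher in 10 of 10). The chains of the interleukin 6 receptor moved apart: Il6ra was lower in the marginal zone gate (log2 fold -1.16, SE 0.18, adjusted p = 1.85e-07, lower in 8 of 10) and Il6st was higher (0.55, SE 0.08, adjusted p = 2.83e-08, higher in 10 of 10).
Socs1 (log2 fold -0.73, SE 0.16), Il4ra (-0.66, SE 0.08), Jak1 (-0.43, SE 0.04) and Stat3 (-0.25, SE 0.05) were lower in the marginal zone gate in 10 of 10 replicates, with adjusted p between 8.35e-13 and 9.92e-05. Socs3 (-0.18, SE 0.09, adjusted p = 0.0921) and Il21r (-0.13, SE 0.06, adjusted p = 0.108) did not pass. Median depth was 5020.5 UMIs in marginal zone-like and 2603 UMIs in follicular-like cells, so these folds are not levels per cell. A UMI was found in more cells of the marginal zone gate for Il4ra (27.79% against 25.28%), Socs1 (4.05% against 3.55%), Jak1 (72.16% against 58.91%) and Stat3 (43.38% against 29.65%). For Il6ra the share was lower (3.49% against 4.63%).

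All 10 genes passed between the CD4 T gate (6863 cells) and the follicular gate, where 68.8% of all genes did. The brakes were higher in the CD4 T gate as a whole: Cish averaged 66.9 ± 19.6 CPM in CD4 T cells and 6.38 ± 1.83 CPM in follicular B cells (log2 fold 3.22, SE 0.11), Socs1 89.8 ± 17 CPM in CD4 T cells and 14.5 ± 4.71 CPM in follicular B cells (2.52, SE 0.12), and Socs3 143 ± 33.9 CPM in CD4 T cells and 40.8 ± 6.92 CPM in follicular B cells (1.70, SE 0.07). Their adjusted p were 8.55e-19, 1.11e-11 and 1.79e-14. Both chains of the interleukin 6 receptor were higher too, Il6ra by 2.58 (SE 0.09, adjusted p = 2.77e-15) and Il6st by 1.99 (SE 0.06, adjusted p = 1.03e-21) on the log2 scale. Jak1 (0.38, SE 0.05), Stat3 (0.36, SE 0.04), Pim1 (0.36, SE 0.05) and Il21r (0.31, SE 0.06) were higher in CD4 T cells by small steps in 10 of 10 replicates. Il4ra alone went the other way, at -0.29 (SE 0.11, adjusted p = 0.0385, lower in 8 of 10 replicates). The CD4 gate mixes classes that differ in Il4ra and Cish: 48.1% of its cells were CD4 T-like, 25% Il21 CD4 T-like and 17.7% regulatory T-like. Cish averaged 7.79 ± 3.92 CPM in the CD4 T-like class and 6.09 ± 1.62 CPM in the follicular-like class, with overlapping ranges, against 156 ± 38.7 CPM in regulatory T-like and 107 ± 18.6 CPM in Il21 CD4 T-like cells.

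Against the CD4 T gate, the CD8 T gate (4544 cells) differed most in Cish, which averaged 14.9 ± 6.06 CPM in CD8 T cells and 66.9 ± 19.6 CPM in CD4 T cells (log2 fold -2.04, SE 0.11, adjusted p = 1.62e-14, lower in 10 of 10 replicates). The largest class of each gate held near the same level, with 8.19 ± 6.80 CPM of Cish in CD8 T-like and 7.79 ± 3.92 CPM in CD4 T-like cells, and the ranges overlapped. Of the 10 genes 8 passed, where 42.5% of all genes did. Il4ra (0.47, SE 0.07) and Jak1 (0.40, SE 0.04) were higher and Il6ra (-0.41, SE 0.07) and Stat3 (-0.30, SE 0.05) lower in CD8 T cells in every replicate, with adjusted p of at most 2.53e-05. Il6st (-0.21, SE 0.07) passed in the same direction in 10 of 10 replicates, while Il21r (0.18, SE 0.05) and Socs1 (0.19, SE 0.07) passed with 5 of 10 replicates higher. Socs3 differed by -0.10 (SE 0.10, adjusted p = 0.444) and Pim1 by 0.16 (SE 0.10, adjusted p = 0.207), and neither passed. Gzmk CD8 T-like cells, named from RNA, made up 7.6% of the CD8 T gate and 2.9% of the CD4 T gate, so that class held cells of both gates.

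The CD11b gate (1247 cells) was mixed, with 36.2% monocyte-like, 22.5% neutrophil-like, 17.8% cDC2-like and 9.0% NK-like cells. Compared with the follicular gate 9 of the 10 genes passed, where 70.0% of all genes did. Il6ra averaged 144 ± 37.3 CPM in CD11b cells and 16 ± 4.39 CPM in follicular B cells (log2 fold 3.24, SE 0.14, adjusted p = 1.7e-15), and Pim1 1690 ± 334 CPM in CD11b cells and 438 ± 53.2 CPM in follicular B cells (2.02, SE 0.08, adjusted p = 8.34e-19). Socs3 (1.32, SE 0.13) and Stat3 (0.65, SE 0.09) were higher in CD11b cells in 10 of 10 replicates, while Il21r (-1.54, SE 0.12), Il4ra (-0.70, SE 0.10) and Jak1 (-0.43, SE 0.08) were lower in 10 of 10, with adjusted p of at most 8.83e-06. Il6st was higher by 0.91 (SE 0.15, adjusted p = 5.72e-06) in 9 of 10. Cish passed (0.84, SE 0.30, adjusted p = 0.0136) although it was higher in 6 of 10 replicates, and Socs1 did not (-0.03, SE 0.20, adjusted p = 0.972).

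**Figure D2:**
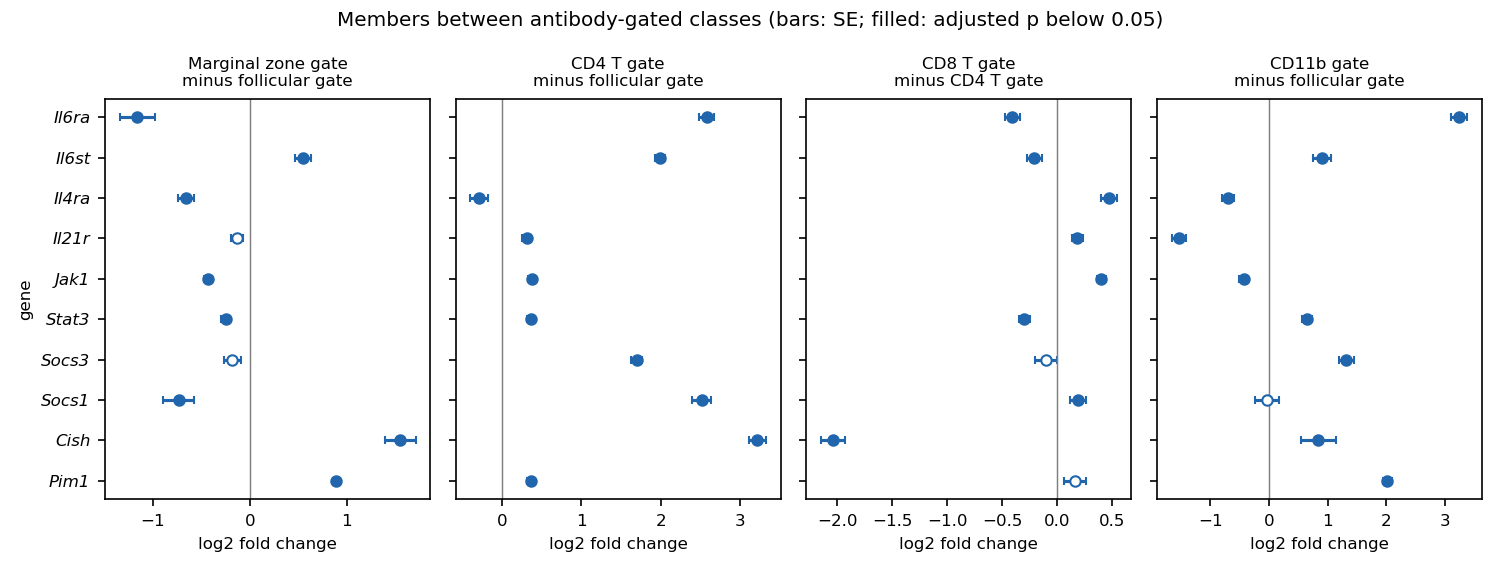
Log2 fold change (x axis) of each gene (y axis) between antibody-gated classes, 1 panel per comparison, with bars for the SE over 10 replicates and filled points for an adjusted p below 0.05. Cish lies at 1.55 for marginal zone over follicular B cells, 3.22 for CD4 T cells over follicular B cells and -2.04 for CD8 over CD4 T cells, and Il6ra lies at 3.24 for CD11b cells over follicular B cells.

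By genotype, 104 pairs of a gene and a class passed the filter on low counts, in 12 classes. Of these pairs, 2 were called for R594C/R594C minus R594C/+, Socs3 in follicular-like B cells and Pim1 in B1-like B cells, beside 0.199% of all gene tests in that contrast. No pair was called for R594C/+ minus WT by edgeR, beside 0.201% of all gene tests, and DESeq2 called 0 as well. For R594C/R594C minus WT, where 0.121% of all gene tests were called, no member pair was called apart from Socs3 in follicular-like B cells. That value chose the set, so its test is void and nothing is read from it. An unadjusted p below 0.05 was found for 24 pairs for R594C/R594C minus R594C/+ (23.1% of pairs, beside 6.56% of all gene tests), for 12 pairs for R594C/+ minus WT (11.5%, beside 6.11%) and for 15 pairs for R594C/R594C minus WT (14.4%, beside 5.62%), the last including the class and contrast that chose the set. The 24 pairs include 5 of follicular-like B cells, whose 2 R594C/R594C replicates also entered the contrast that chose the set. Pairs share cells and replicates, so these shares have no test. The contrasts share replicates, so their values are given side by side.

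Socs3 in follicular-like B cells was 26.9 and 27.2 CPM in R594C/R594C, 36.9, 41.96, 46.0 and 37.1 CPM in R594C/+, and 32.5, 43.3, 45.7 and 42.4 CPM in WT. These levels rest on 121 to 258 UMIs per replicate. Both R594C/R594C replicates lay below all 8 others, and the R594C/+ and WT ranges overlapped. The log2 fold was -0.62 (SE 0.12) for R594C/R594C minus WT, where 0.190% of all genes were called. It was -0.61 (SE 0.12, adjusted p = 0.00973 by edgeR) for R594C/R594C minus R594C/+, where 0.653% were called. That p shares the 2 R594C/R594C replicates with the contrast that chose the set, so it is not independent of the choice, and it was 0.187 without R594C/R594C replicate 1, 0.0552 without replicate 2 and 0.0537 after each cell was thinned to 1500 UMIs. For R594C/+ minus WT, where 0.363% of genes were called, the fold was 0.00 (SE 0.10, adjusted p = 0.999).

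The class joins 5 clusters, and the shares of some of them differed between genotypes without overlap. The fourth in size held 8.2% and 10.4% of the class in R594C/R594C, 11.8% to 15.6% in R594C/+ and 13% to 14.2% in WT, so R594C/R594C lay below all others. The smallest held 3.0% and 4.0% in R594C/R594C, 3.2% to 3.8% in R594C/+ and 1.4% to 2.2% in WT, so WT lay below all others. The one with the most cells held 31.7% and 36.0% in R594C/R594C, 25.3% to 43.4% in R594C/+ and 12.6% to 39.3% in WT. With equal weight for each cluster, Socs3 was 25.3 and 23.8 CPM in R594C/R594C, 33.2 to 43.2 CPM in R594C/+ and 34.5 to 46.4 CPM in WT. These are the cells that chose the set, so the weighted values are a description with no test.

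Transcripts of other cells also moved with the captures. In follicular-like B cells the 7 neutrophil markers summed to 70.0 to 70.1 CPM in R594C/R594C, 137 to 147 CPM in R594C/+ and 28.7 to 43.3 CPM in WT, and the 7 erythroid markers to 236 to 251 CPM in R594C/R594C, 212 to 248 CPM in R594C/+ and 78.6 to 84.9 CPM in WT. T cell markers summed to 35.5 to 38.5 CPM in R594C/R594C, 30.3 to 43.3 CPM in R594C/+ and 46.0 to 53.3 CPM in WT. No marker of these lists was at 0. The part of these transcripts in the Socs3 values was not tested.

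In B1-like B cells Socs3 was 30.2 and 21.5 CPM in R594C/R594C, 64.6, 46.0, 44.1 and 43.6 CPM in R594C/+, and 34.5, 36.3, 33.6 and 56.2 CPM in WT. R594C/R594C lay below all other replicates here too. The log2 fold was -0.97 (SE 0.24, adjusted p = 0.08) for R594C/R594C minus R594C/+ and -0.62 (SE 0.25, adjusted p = 0.456) for R594C/R594C minus WT, so neither passed. In marginal zone-like B cells the values were 35.4 and 35.4 CPM in R594C/R594C, 42.6, 46.1, 34.7 and 30.7 CPM in R594C/+, and 44.5, 33.4, 26.6 and 33.01 CPM in WT. All ranges overlapped, with a fold of 0.07 (SE 0.19, adjusted p = 0.996) for R594C/R594C minus WT.

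In CD4 T-like cells Socs3 was 76.2 and 72.4 CPM in R594C/R594C, 153.6, 84.3, 78.4 and 87.1 CPM in R594C/+, and 86.1, 92.3, 91.2 and 116 CPM in WT. The R594C/R594C replicates were below all others, but the fold of -0.40 (SE 0.15) for R594C/R594C minus WT had an unadjusted p of 0.00689 and an adjusted p of 1.0 by edgeR. In monocyte-like cells the fold for R594C/R594C minus WT had the opposite sign, with 150 and 184 CPM in R594C/R594C, 130, 185, 136 and 192 CPM in R594C/+, and 77.5, 115, 134 and 168 CPM in WT, and the ranges overlapped (0.45, SE 0.26, adjusted p = 1.0). NK-like cells gave a fold of 0.12 (SE 0.19, adjusted p = 0.988).

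**Figure D3:**
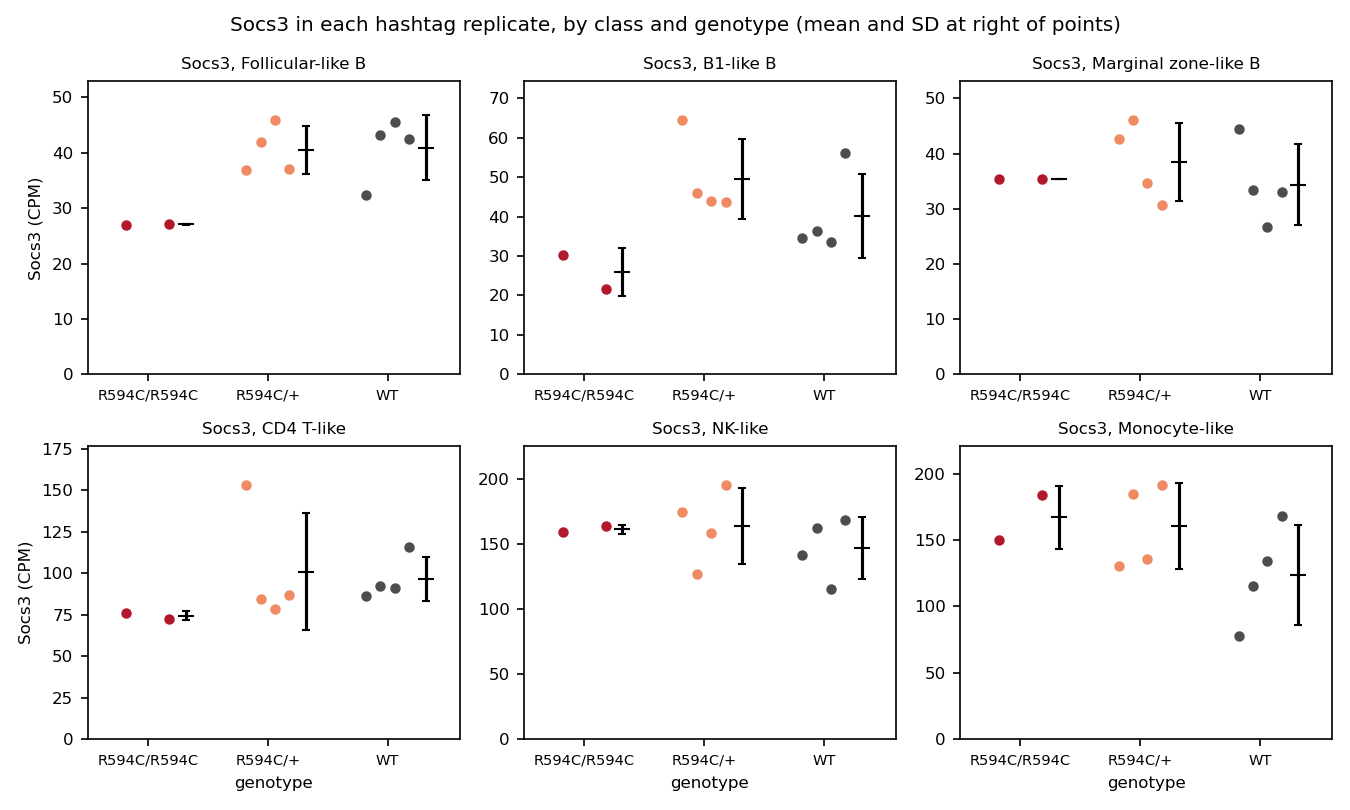
Socs3 level (y axis, CPM) in each hashtag replicate (points) by genotype (x axis) in 6 classes, with mean and SD beside the points (n = 2, 4 and 4). The R594C/R594C points lie at 26.9 and 27.2 CPM in follicular-like B cells, below every R594C/+ and WT replicate, and within the other replicates' range in marginal zone-like B and NK-like cells.

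Pim1 in B1-like B cells was the other called pair. It was 636 and 604 CPM in R594C/R594C, 415, 352, 431 and 394 CPM in R594C/+, and 430, 569, 435 and 382 CPM in WT. Both R594C/R594C replicates were above all 8 others. Pim1 rose in R594C/R594C over R594C/+ by 0.62 (log2, SE 0.12, adjusted p = 0.015 by edgeR), where 0.159% of genes were called. Over WT the fold was 0.45 (SE 0.12, adjusted p = 0.125), where 0.250% were called. The call over R594C/+ was lost without R594C/R594C replicate 1 (adjusted p = 0.316), R594C/R594C replicate 2 (0.195), R594C/+ replicate 2 (0.0672) or R594C/+ replicate 4 (0.0537). Pim1 averaged 4650 CPM in neutrophil-like and 465 CPM in B1-like B cells over all genotypes. The neutrophil markers summed to 48.6 to 57.8 CPM in R594C/R594C, 93.7 to 111 CPM in R594C/+ and 14 to 45.7 CPM in WT B1-like cells. Their part in the Pim1 values was not tested.

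Monocyte-like cells showed the same order for Pim1, with 1432 and 1560 CPM in R594C/R594C, 1086, 1070, 1060 and 1095 CPM in R594C/+, and 1207, 1007, 1134 and 1136 CPM in WT. The R594C/R594C replicates were above all others, and the folds of 0.46 over R594C/+ (SE 0.12, adjusted p = 0.473) and 0.41 over WT (SE 0.12, adjusted p = 0.604) did not pass. In follicular-like B cells Pim1 was 416 and 501 CPM in R594C/R594C, 413, 389, 364 and 409 CPM in R594C/+, and 414, 519, 369 and 393 CPM in WT, which overlapped.

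Stat3 in follicular-like B cells was 114 and 115 CPM in R594C/R594C, 134, 148, 137 and 124 CPM in R594C/+, and 132, 133, 135 and 144 CPM in WT. R594C/R594C was below all others by a small step, with log2 folds of -0.26 (SE 0.07) for R594C/R594C minus WT and -0.27 (SE 0.07, adjusted p = 0.0929) for R594C/R594C minus R594C/+. In B1-like B cells it was 93.8 and 96.5 CPM in R594C/R594C, 143, 149, 94.2 and 117 CPM in R594C/+, and 122, 126, 120 and 151 CPM in WT (-0.44 for R594C/R594C minus WT, SE 0.16, adjusted p = 0.355), and R594C/R594C overlapped R594C/+. Jak1 in follicular-like B cells was 328 and 311 CPM in R594C/R594C, 356, 374, 384 and 345 CPM in R594C/+, and 331, 348, 338 and 327 CPM in WT. R594C/R594C lay below all R594C/+ replicates, a difference that was not called, and overlapped WT. The fold of 0.14 (SE 0.06) for R594C/+ minus WT did not pass (adjusted p = 0.598).

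The receptor chains in B cells did not pass either. Il6ra in follicular-like B cells was 15.97 and 23.3 CPM in R594C/R594C, 7.79, 13.4, 14.2 and 15.3 CPM in R594C/+, and 15.02, 16.6, 12.5 and 11.6 CPM in WT. The R594C/R594C replicates were above all R594C/+ replicates (0.57, SE 0.20, adjusted p = 0.327) and overlapped WT. That difference passed with expressed sex as a covariate (0.80, adjusted p = 0.0102) and with no filter on low counts (adjusted p = 0.0328). In marginal zone-like B cells Il6ra was 8.72 and 10.3 CPM in R594C/R594C, 6.01, 3.78, 5.10 and 7.18 CPM in R594C/+, and 10.2, 10.0, 12.9 and 7.34 CPM in WT, from 5 to 21 UMIs each. There R594C/+ lay below WT without overlap (-0.80, SE 0.33, adjusted p = 0.539).

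Il6st in B1-like B cells was 83.8 and 116 CPM in R594C/R594C, 57.6, 54.0, 93.2 and 73.0 CPM in R594C/+, and 39.8, 84.4, 64.9 and 31.7 CPM in WT, and the ranges overlapped (0.79 for R594C/R594C minus WT, SE 0.33, adjusted p = 0.54). Il4ra in follicular-like B cells was nearly level, with 109.7 and 110.1 CPM in R594C/R594C, 102.5, 108.2, 107.6 and 107.5 CPM in R594C/+, and 93.3, 114, 116 and 112 CPM in WT. Il21r there was 151 and 157 CPM in R594C/R594C, 141, 172, 147 and 150 CPM in R594C/+, and 159, 177, 147 and 148 CPM in WT, with complete overlap. The fold for R594C/+ minus WT was -0.02 (SE 0.07, adjusted p = 0.983) for Il4ra and -0.03 (SE 0.07, adjusted p = 0.967) for Il21r.

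**Figure D4:**
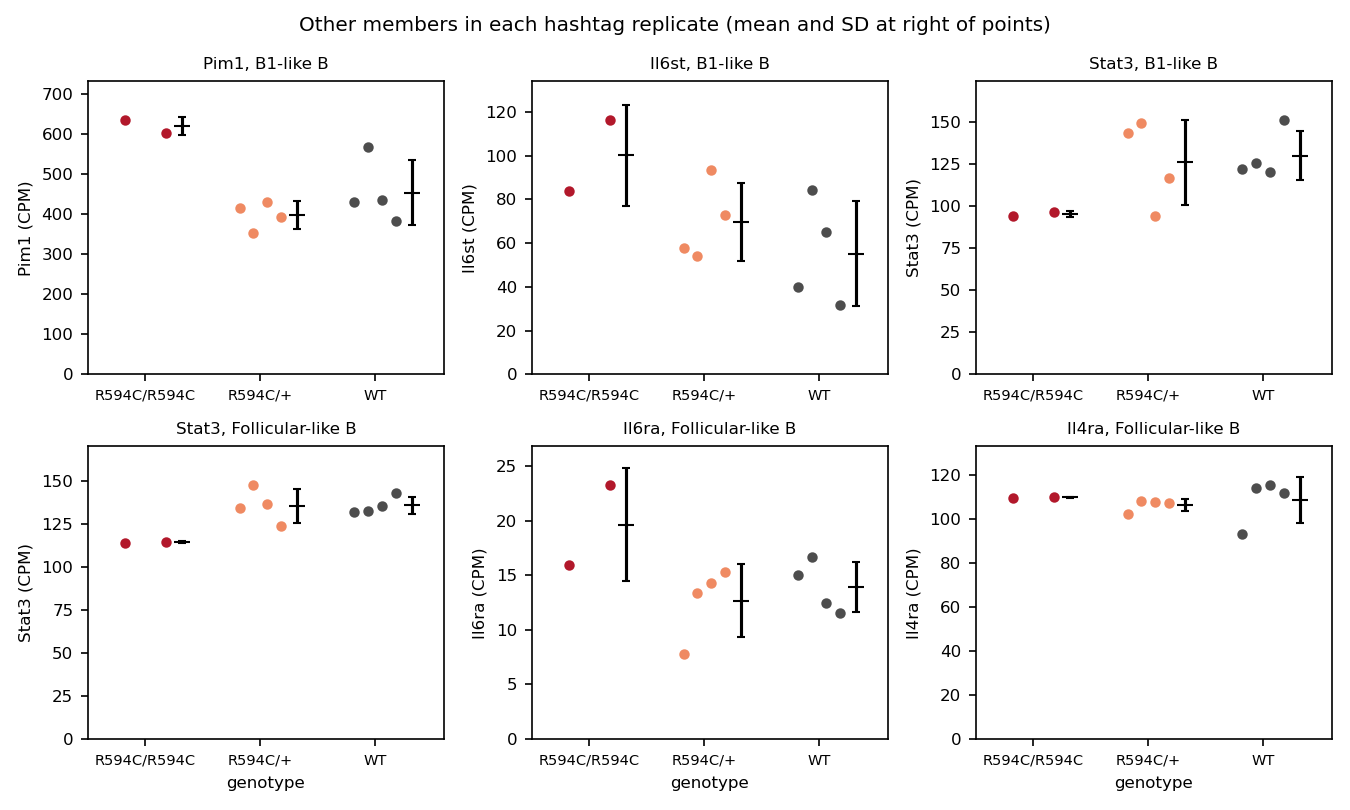
Level (y axis, CPM) of Pim1, Il6st, Stat3, Il6ra and Il4ra in each hashtag replicate (points) by genotype (x axis) in B1-like or follicular-like B cells, with mean and SD beside the points (n = 2, 4 and 4). Pim1 in B1-like cells stands at 636 and 604 CPM in R594C/R594C against 352 to 431 CPM in R594C/+, and Stat3 in follicular-like cells at 114 and 115 CPM in R594C/R594C against 124 to 148 CPM in R594C/+.

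The other brakes were thinly counted. Socs1 in NK-like cells was 79.4 and 86.8 CPM in R594C/R594C, 102, 71.4, 76.4 and 80.9 CPM in R594C/+, and 45.8, 60.6, 57.5 and 49.1 CPM in WT, from 11 to 59 UMIs. All 6 replicates with R594C were above all 4 WT replicates, and the folds of 0.65 for R594C/R594C (SE 0.25, adjusted p = 0.91) and 0.62 for R594C/+ (SE 0.24, adjusted p = 0.545) over WT did not pass. Socs1 in follicular-like B cells was 9.60 and 11.04 CPM in R594C/R594C, 12.4, 16.3, 15.6 and 16.9 CPM in R594C/+, and 11.3, 18.7, 8.08 and 13.5 CPM in WT. R594C/R594C lay below all R594C/+ replicates, a difference that was not called, and overlapped WT.
Cish in marginal zone-like B cells was 14.9 and 24.1 CPM in R594C/R594C, 19.7, 25.7, 23.4 and 13.1 CPM in R594C/+, and 12.97, 15.03, 20.99 and 19.3 CPM in WT, which overlapped. In CD8 T-like cells Cish was 3.91 and 6.20 CPM in R594C/R594C, 8.75, 25.8, 10.2 and 7.89 CPM in R594C/+, and 2.45, 2.90, 9.48 and 4.29 CPM in WT, from 1 to 20 UMIs, and the fold of 1.28 for R594C/+ minus WT (SE 0.45, adjusted p = 0.64) did not pass.

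**Figure D5:**
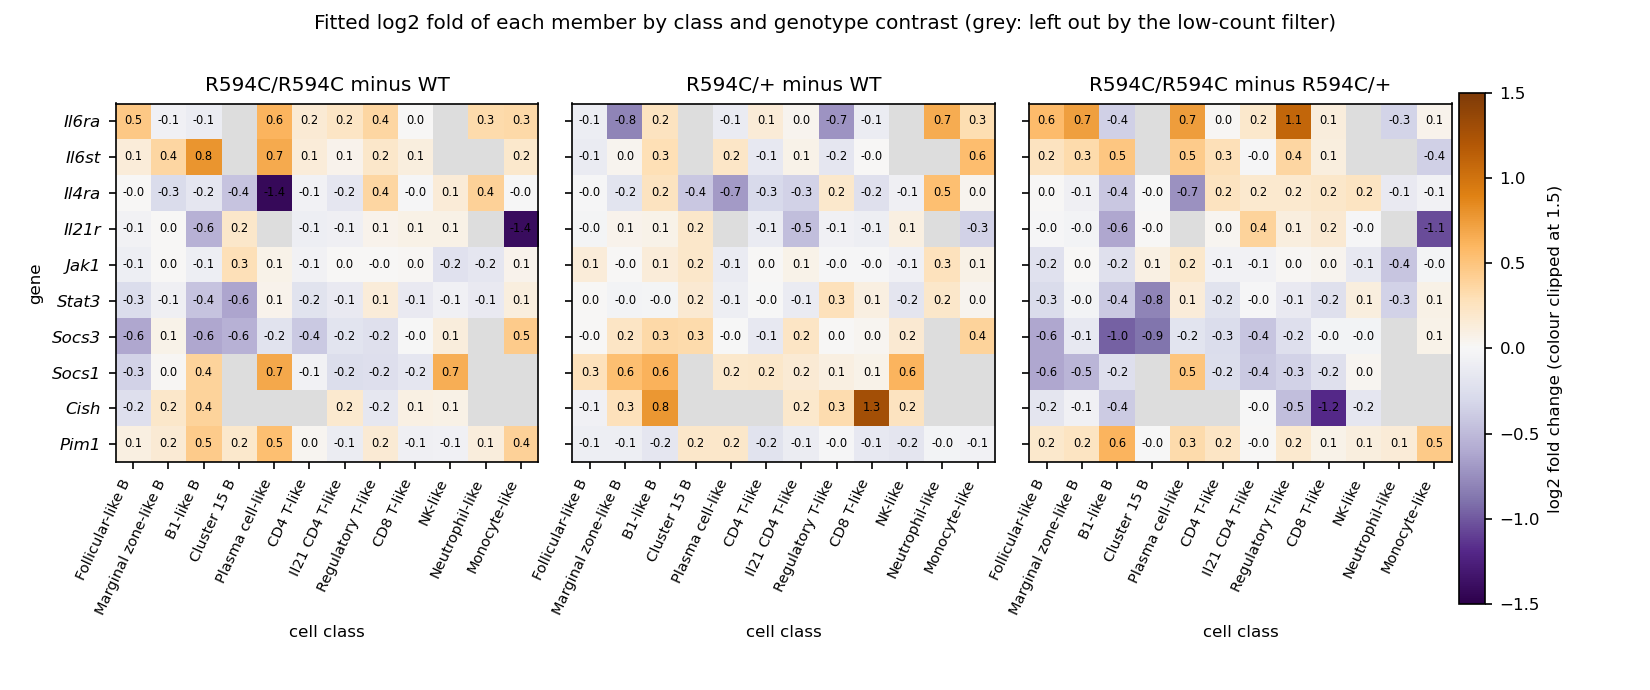
Fitted log2 fold change (colour and number) of each gene (rows) in 12 classes (columns) for R594C/R594C minus WT, R594C/+ minus WT and R594C/R594C minus R594C/+, with grey for pairs left out by the filter on low counts. For R594C/R594C minus WT, Socs3 is at -0.6 in follicular-like and B1-like B cells and at 0.5 in monocyte-like cells.

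Whether a genotype fold differed between classes was tested for marginal zone-like B, CD4 T-like and monocyte-like cells, with the replicate as block. Follicular-like B cells were left out, since their contrast chose the set. None of 58 tests of members passed by edgeR, beside 0.0406% of all gene tests, and 6 had an unadjusted p below 0.05, which is 10.3% beside 5.27% of all gene tests. DESeq2 was not run on these differences. The lowest p was for Socs3, whose fold for R594C/R594C minus WT was lower in CD4 T-like than in monocyte-like cells by a log2 difference of -0.92 (SE 0.29, unadjusted p = 0.00212, adjusted p = 0.712). Pim1 in the same comparison gave -0.45 (SE 0.17, adjusted p = 0.923).

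The antibody panel held CD124, the protein of Il4ra. In follicular-like B cells it gave 0.541 ± 0.240 UMIs per cell in R594C/R594C (n = 2), 0.621 ± 0.158 in R594C/+ and 0.672 ± 0.0975 in WT (n = 4 each), and the groups overlapped. Fitted relative to all tags, the log2 fold of CD124 for R594C/R594C minus WT was 0.93 (SE 0.23), given with no test, so its direction depends on the scaling. In that fit 79.4% of the antibody tags were called, the median tag was at -0.34, and 5 rat isotype controls, which bind no mouse protein by design, lay between -0.96 and -2.80, while a tag that the files name only IgG2a was at 1.09, above CD124. The rat IgG2a control itself gave 0.0910 ± 0.0608 UMIs per cell in R594C/R594C, 0.231 ± 0.0561 in R594C/+ and 0.409 ± 0.0410 in WT. In CD4 T-like cells CD124 gave 0.650 ± 0.325 UMIs per cell in R594C/R594C, 0.699 ± 0.308 in R594C/+ and 0.805 ± 0.275 in WT, with a fitted fold of 0.90 for R594C/R594C minus WT (SE 0.33, adjusted p = 0.0271 by edgeR), where 75.3% of tags were called, the rat controls lay between -0.81 and -4.59 and the IgG2a tag was at 1.09. The fold did not pass in the other 5 classes fitted, at 0.16 in marginal zone-like, 0.26 in B1-like, 0.62 in CD8 T-like, 0.19 in NK-like and 0.50 in monocyte-like cells (adjusted p of 0.208 to 0.669), where 23.8% to 77.6% of tags were called.

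The rest of the pathway was followed in lists of genes by role, and the median fold of each is set beside the median over all genes of the class, which lay within 0.03 of 0. Of all gene tests in the 12 classes 0.121% to 0.201% were called per contrast, and the counts of the lists are read against that rate. The 15 other SOCS proteins and negative regulators gave no call in 360 gene tests over all classes and contrasts, with a median of 0.02 for R594C/R594C minus WT in follicular-like B cells. The 9 other JAKs and STATs gave none in 267 tests (median -0.03 in the same class and contrast), the 18 ligands none in 105 (0.03), the 20 STAT3 target genes none in 546 (0.05) and the 10 STAT6 and interleukin 4 target genes none in 177 (-0.05). The 25 other receptor chains gave 2 higher and 2 lower calls in 399 tests (median 0.02), all of 1 gene. The medians come from the class and contrast that chose the set and are a description. The genes of a list share cells and are not replicates.

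The gene called among the receptors was Il9r, a chain of the interleukin 9 receptor. In follicular-like B cells it averaged 9.28 ± 2.49 CPM in R594C/R594C (n = 2), 23 ± 2.80 CPM in R594C/+ and 13.9 ± 2.15 CPM in WT (n = 4 each). It fell in R594C/R594C against R594C/+ (log2 fold -1.34, SE 0.17, adjusted p = 2.03e-05) and rose in R594C/+ against WT (0.75, SE 0.15, adjusted p = 0.00903). In marginal zone-like B cells it averaged 38.3 ± 5.61 CPM in R594C/R594C, 72.7 ± 14.2 CPM in R594C/+ and 51.7 ± 3.46 CPM in WT. It fell there against R594C/+ (-0.98, SE 0.16, adjusted p = 0.00041), where 0.193% of genes were called, and rose in R594C/+ against WT (0.57, SE 0.13, adjusted p = 0.0368), where 0.375% were called. The 7 neutrophil markers in these cells summed to 33.4 to 39.4 CPM in R594C/R594C, 86.2 to 126 CPM in R594C/+ and 17.5 to 28.7 CPM in WT, and were also highest in R594C/+ among follicular-like cells. Their part in the Il9r values was not tested. Il9r was also a leading marker gene of the marginal zone-like cluster, and unlike the members it was not kept out of the clustering. The part of marginal zone-like cells or their transcripts in the follicular-like values was not tested. With expressed sex as a covariate the R594C/+ minus WT difference did not pass, with adjusted p of 0.175 in follicular-like and 0.515 in marginal zone-like cells. In marginal zone-like cells it was also lost in DESeq2 (0.347), with the replicate block (0.0578), with doublets kept (0.0574), with cells thinned to 1500 UMIs (0.527) and in the antibody gate (0.168), and in follicular-like cells with thinned cells (0.195). In follicular-like cells it was also lost without R594C/+ replicate 1 (0.0622), R594C/+ replicate 2 (0.0784) or WT replicate 3 (0.0826). In marginal zone-like cells it was lost without R594C/+ replicate 1, 2 or 4 (0.298, 0.0662 and 0.0891) and without WT replicate 1, 3 or 4 (0.141, 0.131 and 0.062). The difference between R594C/R594C and R594C/+ in marginal zone-like cells was lost without R594C/R594C replicate 1 (0.087).

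Cxcl10, which encodes a chemokine, rose in R594C/+ NK-like cells, with 123 ± 38.9 CPM against 62.7 ± 18.9 CPM in WT (log2 fold 0.97, SE 0.23, adjusted p = 0.0463, n = 4 each), where 0.221% of genes were called. DESeq2 did not call it (adjusted p = 1.0), and in edgeR it was lost with only the 2 genotypes in the fit (0.0757), the replicate block (0.0686), expressed sex (0.532), the hashtag margin rule (0.715) and thinned cells (0.903), and without R594C/+ replicate 2, 3 or 4 (0.128, 0.211 and 0.127) and without WT replicate 1, 3 or 4 (0.193, 0.115 and 0.245).

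Genes whose class means followed those of a member most closely were found over 20 classes among 11853 genes, by Pearson's r of log2(CPM + 1) class means. For Socs3 they were Lrrfip1 (r = 0.928), Snrk (0.920) and Kif21b (0.912), for Socs1 Lck (0.917), Aak1 (0.894) and Ntrk3 (0.893), and for Cish Arl15 (0.874), Ndnf (0.868) and Cdk5rap1 (0.856). Stat3 was followed by H2-D1 (0.920), Btg1 (0.907) and Tle3 (0.904), and Jak1 by Ankrd11 (0.961), Gm12940 (0.944) and Gm45342 (0.939). Nearest to Il21r was Bcl9l (0.962), to Il4ra Phf21a (0.888), to Pim1 Lilr4b (0.846) and to Il6st Castor2 (0.838). Within the set, Socs3 and Stat3 had an r of 0.85. These r have no p, since the classes share libraries and differ in depth.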

How the data were processed

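The authors deposited raw UMI counts per gene, antibody tag and hashtag for each barcode, with Cell Ranger 5.0.0 per the file headers. Cell Ranger, STAR, Seurat 3.1.4 and mm10 are named in the submitters' processing notes, with no role given. The 9 GEO samples are an mRNA, an antibody and a hashtag library of each of 3 captures, and 0 columns of other samples were used.

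Barcodes were kept when they held 200 genes or more and no more than 10% mitochondrial UMIs. Hashtags were called with HTODemux (Seurat 5.3.0, quantile 0.99), leaving 15502 single cells in R594C/R594C, 15344 in R594C/+ and 12759 in WT. As many cells with the highest simulated-doublet scores (scanpy 1.11.5) were removed as doublets within a hashtag were expected, 9.99% in R594C/R594C, 4.16% in R594C/+ and 3.39% in WT. The remaining 40987 cells were clustered (leidenalg 0.10.2, resolution 1.5, 39 clusters) and named from marker genes found at 2-fold or more in at least 10% of a cluster's cells. Clusters without clear markers were left out. Counts were summed per hashtag replicate and class, with at least 10 cells, and tested with edgeR 4.0.16 (robust quasi-likelihood, TMM, filterByExpr, all genotypes in 1 fit, Benjamini-Hochberg over all genes at 0.05). Gates on antibody tags used no RNA, and antibody tags averaging 10 UMIs or more over replicates went through the same test. The genotype test was checked on simulated counts of follicular-like B, B1-like B and monocyte-like cells, for R594C/R594C minus WT. The gate, class-difference and antibody tag tests were not simulated.

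The members, lists and tests were chosen with earlier results of these data known. Named were all members, list genes past 0.05, and the 3 genes nearest to a member by r (antigen receptor segments left out), of which the nearest alone is given for 4 members. A gene list and the nearest genes of the remaining member are not reported here. Alternatives were DESeq2 1.42.0 and its size factors, no filter on low counts, 2 genotypes per fit, replicate block, expressed sex, a hashtag margin rule (highest at least 3 times the next), doublets kept, thinning to 1500 UMIs, resolution 1.0, antibody gates and leaving out each replicate. Free RNA was not modelled, and shares and floors (3 counts) cover counting error only.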

Additional observations from a re-analysis of the deposited data

Results flagged for a closer look

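In 40 groups of 4 replicates whose values are given above, 5 held a replicate far from the other 3. Chance gives about 1 in 20 groups, and no cause was tested. Socs3 in B1-like B cells was 64.6 CPM in R594C/+ replicate 1, against 43.6 to 46.0 CPM in the other 3. Socs3 in the same class was 56.2 CPM in WT replicate 4, against 33.6 to 36.3 CPM in the others. In CD4 T-like cells Socs3 was 153.6 CPM in R594C/+ replicate 1, against 78.4 to 87.1 CPM, from 26 UMIs in 51 cells. Cish in CD8 T-like cells was 25.8 CPM in R594C/+ replicate 2, against 7.9 to 10.2 CPM, from 14 UMIs. Il4ra in follicular-like B cells was 102.5 CPM in R594C/+ replicate 1, against 107.5 to 108.2 CPM, a gap of a few CPM in a tight group. R594C/+ replicate 1 holds 3 of the 5 values.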

How the results depend on the processing

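No RNA result turned its direction under any alternative run, while the sign of CD124 differs between UMIs per cell and the fitted fold. The called member and class pairs for R594C/R594C minus WT are not followed over the alternatives, because the 1 pair is the value that chose the set. For R594C/+ minus WT the count of called pairs was 0, and 2 with expressed sex as covariate (Pim1 in follicular-like B cells and Il21r in Il21 CD4 T-like cells). For R594C/R594C minus R594C/+ it was 2, and 5 with no filter, 4 with only the 2 genotypes in the fit, 4 with expressed sex, 1 with thinned cells, 3 with the replicate block and 0 to 3 without 1 replicate (0 without R594C/R594C replicate 2). Called genes over 12 classes numbered 97, 161 and 160 for R594C/R594C minus WT, R594C/+ minus WT and R594C/R594C minus R594C/+. With no filter they were 280, 368 and 402, with the replicate block 133, 267 and 291, with thinned cells 62 and 96 in the first 2 contrasts, and in the last 288 with only the 2 genotypes and 288 with expressed sex. Without 1 replicate they ranged over 51 to 143, 127 to 196 and 80 to 229. The cause was not tested. Deviations of same-numbered replicates correlated at -0.17 to 0.35 (8 pairs) and of other pairs at -0.35 to 0.25 (24 pairs). In a group of 2 the deviations are equal and opposite, so the R594C/R594C replicates must mirror each other, as with -0.35 and 0.35 against WT replicate 2. Their pairs are not independent values. The ranges therefore do not decide whether replicate numbers pair the samples. The fall of Il9r in R594C/R594C against R594C/+ follicular-like B cells passed under every alternative run, while Il9r in marginal zone-like cells and Cxcl10 for R594C/+ minus WT each lost their call without 6 of the 10 replicates, in turn, and in DESeq2.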
